A study of Mus musculus with 3 samples.

Results

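The transcription factor genes *Tcf21*, *Maf*, *Twist1*, *Twist2*, *Foxd1*, *Prrx1* and *Osr1* were followed across the cell types of the fetal mouse ovary. They were taken by name, as factors known from embryonic mesenchyme, with earlier results of these data known. They make up 7 of the 18738 genes listed in any of the count tables. The data are single-cell RNA sequencing (10X Genomics 3′ chemistry) of fetal ovarian somatic cells (FOSCs) from CD1 mice at stage E12.5, in 3 cryopreserved lots numbered 26, 29 and 30. Each lot pooled the ovaries of the litters of 10 pregnant females, the mesonephros was cut away by hand, and cells carrying SSEA1 or CD31, which mark germ and endothelial cells, were depleted on magnetic columns before freezing. No lot was treated and there is no control group, so the comparisons are between cell types of the same lots. The n of every value is 3 lots, each a pool of animals, so the spread given is between pools.

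These factors bind DNA through different folds. *Tcf21*, *Twist1* and *Twist2* encode basic helix-loop-helix proteins, which pair with E proteins such as those of *Tcf3*, *Tcf4* and *Tcf12* and recognise the E-box. *Foxd1* encodes a forkhead factor known from the stroma of the embryonic kidney, *Prrx1* a paired-related homeodomain factor of limb and craniofacial mesenchyme, *Osr1* an odd-skipped zinc finger factor of intermediate and lateral mesoderm, and *Maf* a basic leucine zipper factor that also acts in macrophages and lens. TCF21 is known from the development of gonadal and kidney mesenchyme, and MAF from the interstitium of the fetal gonad.

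The 250 bases before the start site are shown for *Foxd1*, *Prrx1*, *Twist1* and *Tcf21*. Pairs of *Foxd1*, *Prrx1* and *Twist1* had the highest odds ratios of being found in the same stromal-like cell. *Tcf21* was found less often in cells with *Foxd1* than in cells without it. The sequences are RefSeq's on GRCm38.p6, taken from a promoter table in which 5 of the 7 genes were matched (these 4 and *Twist2*), and run 5′ to 3′ in the direction of the gene. *Foxd1* lies at chr13:98353995-98354244 on the plus strand, *Prrx1* at chr1:163313651-163313900 on the minus strand, *Twist1* at chr12:33957421-33957670 on the plus strand and *Tcf21* at chr10:22820144-22820393 on the minus strand. Capitals mark each match to the E-box CANNTG or the TATA box TATAAA on either strand.
Foxd1: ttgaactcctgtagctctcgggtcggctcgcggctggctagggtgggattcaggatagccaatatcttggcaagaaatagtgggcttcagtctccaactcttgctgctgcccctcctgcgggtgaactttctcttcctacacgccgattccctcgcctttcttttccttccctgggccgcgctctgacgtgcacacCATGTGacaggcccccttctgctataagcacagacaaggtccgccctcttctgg
Prrx1: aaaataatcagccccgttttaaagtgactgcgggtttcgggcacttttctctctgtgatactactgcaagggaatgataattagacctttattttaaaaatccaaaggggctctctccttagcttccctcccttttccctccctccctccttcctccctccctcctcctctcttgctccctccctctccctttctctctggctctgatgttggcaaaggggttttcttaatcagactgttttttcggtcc
Twist1: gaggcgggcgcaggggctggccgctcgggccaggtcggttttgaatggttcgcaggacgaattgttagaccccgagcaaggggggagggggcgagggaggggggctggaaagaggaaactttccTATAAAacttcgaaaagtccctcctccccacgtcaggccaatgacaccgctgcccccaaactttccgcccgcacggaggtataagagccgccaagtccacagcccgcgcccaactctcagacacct
Tcf21: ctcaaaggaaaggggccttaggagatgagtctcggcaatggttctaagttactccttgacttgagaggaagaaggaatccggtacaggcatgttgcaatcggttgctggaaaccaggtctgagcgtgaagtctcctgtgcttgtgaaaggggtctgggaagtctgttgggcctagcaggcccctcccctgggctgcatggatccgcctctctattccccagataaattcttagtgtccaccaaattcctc
Of the 5 promoters, that of *Foxd1* held 1 E-box, CATGTG, and the others none, whereas 66.2% of the 32851 promoters of the same length held at least 1. The TATA box was found in *Twist1* alone of the 5, against 12.4% of all promoters. Neither the forkhead letters TGTTTAC (3.17% of all promoters) nor the MAF motif TGCTGA (16.1%) was found in any of the 5. These are matches of letters in a short window, and say nothing of binding.

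The tables held 28971 barcodes with 200 to 9000 genes and at most 10% mitochondrial UMIs (unique molecular identifiers, 1 for each captured transcript), of 29103 in all. The 3 lots held 8553 to 10707 such cells, with a median of 8949 to 11595 UMIs per cell, and each pair of lots shared 20 to 30 barcodes. Cells were clustered without the 7 members and without 59 related transcription factors, and clusters were called "X-like" from marker lists that hold none of the members. Genes that vary together with the members did take part in the clustering, so a difference between clusters is not independent of it. For each class and lot, UMIs were added up over cells and scaled to a total of 1000000 (CPM), which is the level given throughout. Levels were compared for 1 gene between classes and not between genes.

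The stromal-like class held 2228, 1878 and 2327 cells in lots 26, 29 and 30, in 4 clusters. All 8 of 8 stromal markers (*Pdgfra*, *Col1a1*, *Col1a2*, *Col3a1*, *Dcn*, *Lum*, *Postn* and *Ogn*) had UMIs in it. Their sum was 2214 to 2655 CPM in the 3 lots, against 638 to 851 CPM in the epithelial-like class (the surface epithelium and its neighbours) and 115 to 161 CPM in the pre-granulosa-like class (the supporting cells). A Y-linked UMI was found in 3.73%, 14.1% and 1.42% of the stromal-like cells of lots 26, 29 and 30, the highest share being that of lot 29. The study reported a few contaminating Sertoli cells, a testis cell type, in all lots. Without the cells with a Y-linked UMI, lot 29 went from 205 to 224 CPM of *Maf* and from 21.4 to 24.0 CPM of *Osr1*. The other members moved less, relative to their level. In stromal-like cluster 5 of lot 29, 26.3% of cells held such a UMI. Without them *Maf* went there from 159 to 189 CPM and *Osr1* from 15.0 to 18.6 CPM.

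*Tcf21* was detected in most stromal-like cells and in part of the epithelial-like class, and hardly in the supporting cells. It stood at 261, 280 and 235 CPM in the stromal-like cells of lots 26, 29 and 30, at 97.9, 138 and 73.9 CPM in epithelial-like cells, and at 4.84, 5.80 and 4.56 CPM in the pre-granulosa-like class. The 3 ranges did not overlap, with lot 29 highest in each. Of all *Tcf21* UMIs, 60.3% ± 7.4 (SD, n = 3) lay in stromal-like and 30.8% ± 5.4 in epithelial-like cells. With every cell thinned to 4000 UMIs, so that depth was equal, 53.7% ± 1.9 of stromal-like, 24.4% ± 5.3 of epithelial-like and 1.76% ± 0.034 of pre-granulosa-like cells had a *Tcf21* UMI. Germ-like cells, which should lack it, reached 2.43% ± 1.6, and the mean share in pre-granulosa-like cells did not exceed that. Called doublets, barcodes that score like a pair of cells captured together, made up 14.3%, 8.90% and 15.8% of germ-like cells in lots 26, 29 and 30. Their part in the germ-like share was not tested. Before thinning, the shares were 72.9% in stromal-like and 11.5% in germ-like cells, at median depths of 7844.5 to 10083 and 18134 to 23767 UMIs. Below the epithelial-like class, at 103 CPM, the means of the other classes tested ran from 22.6 CPM in macrophage-like to 5.07 CPM in pre-granulosa-like cells, and the lots of neighbours in that order overlapped down to the germ-like cells.

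*Maf* had its highest level outside the stroma, in the few macrophage-like cells. There it stood at 549, 396 and 588 CPM in lots 26, 29 and 30, from 68, 21 and 46 cells. Stromal-like cells followed with 278, 205 and 261 CPM, and the ranges of both classes did not overlap. Genes of neutrophils (*S100a8*, *S100a9*, *Camp* and *Ngp*) led that cluster beside those of macrophages (*C1qa*, *C1qb*). The 8 macrophage markers summed to 3888 to 7376 CPM in the macrophage-like class and to 4.94 to 7.32 CPM in the stromal-like class, where all 8 had a UMI. The pre-granulosa-like, endothelial-like and epithelial-like classes came next, at 55.6 ± 9.3, 49.3 ± 14 and 48.9 ± 4.3 CPM (SD, n = 3), and their lots overlapped. In the thinned cells, 54.5% ± 6.2 of stromal-like, 18.1% ± 2.8 of pre-granulosa-like and 16% ± 0.69 of epithelial-like cells had a *Maf* UMI, against 5.12% ± 1.7 of germ-like cells. Within the pre-granulosa-like class the level was uneven: cluster 12, led by *Lypd1*, *Pax8* and *Aldh1a3*, held 198 CPM ± 26, and the other 3 clusters of the class 35.6 to 69.1 CPM on average. Cluster 12 had no pre-granulosa marker among its 10 leading genes, which included *Pax8* of the mesonephric tubule list, and its pre-granulosa markers summed to 2634 to 2946 CPM. Its highest-scoring list was the steroidogenic one, of which 1 marker was found in at least 60% of its cells.

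The TWIST genes were mostly found in the stroma. *Twist1* stood at 62.4, 91.9 and 76.8 CPM in the stromal-like cells of lots 26, 29 and 30, and at 13.7, 15.5 and 11.3 CPM in epithelial-like cells. The pre-granulosa-like class held 2.83 CPM ± 0.28 and the germ-like class 7.93 CPM ± 1.6. After thinning, 21.4% ± 3.0 of stromal-like and 4.55% ± 0.56 of epithelial-like cells had a UMI, against 3.18% ± 1.1 of germ-like and 1.17% ± 0.052 of pre-granulosa-like cells. *Twist2* stood at 18.5, 19.3 and 16.4 CPM in stromal-like cells, and 67.5% ± 3.1 of its UMIs lay there. All other classes tested were at 2.95 CPM or less on average, and the thinned share fell from 7.80% ± 0.42 in stromal-like to 0.938% ± 0.15 in pre-granulosa-like, 0.685% ± 0.21 in epithelial-like and 0.354% ± 0.31 in germ-like cells. No *Twist1* or *Prrx1* UMI was found in the red blood cell-like cells (20, 36 and 22 cells), where 3 UMIs would be 16.2, 7.96 and 10.1 CPM.

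*Foxd1* had 82% ± 1.6 of its UMIs in stromal-like cells, the largest share of the 7 members, and a wide spread between lots. It stood at 34.7, 76.6 and 38.0 CPM in the stromal-like cells of lots 26, 29 and 30. Lot 29 was higher than the other lots, and without the cells that held a Y-linked UMI the values were 35.3, 76.2 and 38.4 CPM. The next classes were at 5.55 CPM ± 4.2 (macrophage-like), 5.25 ± 6.9 (mesonephric tubule-like), 3.68 ± 1.3 (epithelial-like) and 3.27 ± 1.6 (germ-like), and overlapped one another. The thinned share was 9.24% ± 3.1 in stromal-like cells. It was 1.17% ± 0.41 in epithelial-like, 0.571% ± 0.26 in pre-granulosa-like and 1.15% ± 0.35 in germ-like cells, of which 8.90% to 15.8% were called doublets. Over the whole epithelial-like class the share was thus close to that of germ-like cells, while epithelial-like cluster 10 held 3.22% ± 1.7.

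*Prrx1* stood at 60.2, 64.9 and 53.5 CPM in the stromal-like cells of lots 26, 29 and 30, and 73.4% ± 1.5 of its UMIs lay there. Of the classes, the mesonephric tubule-like class held its highest level, at 66.03, 111 and 133 CPM, from 22, 38 and 18 cells. Before thinning, 55.3% of that class (21 of 38 cells) had a UMI in lot 29. The exact 95% binomial interval of 38.3% to 71.4% covers counting error only. Over the lots, 56.1% ± 16 of its cells had a UMI before thinning and 34.2% ± 19 after it. Stromal-like clusters 9 and 11, at 117 and 107.5 CPM on average, overlapped the levels of the mesonephric tubule-like class. The 7 mesonephric tubule markers summed to 1427 to 1886 CPM there and to 11.3 to 15.8 CPM in stromal-like cells. The stromal markers summed to 105 to 170 CPM there, with *Ogn* at 0, and *Tcf21* stood at 13.2 CPM ± 9.8. The epithelial-like class held 10 CPM ± 1.8 of *Prrx1*, and 3.52% ± 0.16 of its thinned cells had a UMI, against 18.7% ± 0.73 of stromal-like and 1.12% ± 0.35 of germ-like cells. *Osr1* stood at 21.9, 21.4 and 24.0 CPM in stromal-like cells, at 8.65, 6.78 and 10.5 CPM in epithelial-like cells and at 0.969, 1.23 and 2.99 CPM in the pre-granulosa-like class. Its thinned share was 8.50% ± 1.3 in stromal-like and 3.18% ± 1.5 in epithelial-like cells, against 0.507% ± 0.097 in germ-like cells. The mesonephric tubule-like class followed the epithelial-like class at 8.21 CPM ± 4.8, and their lots overlapped.

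**Figure D1:**
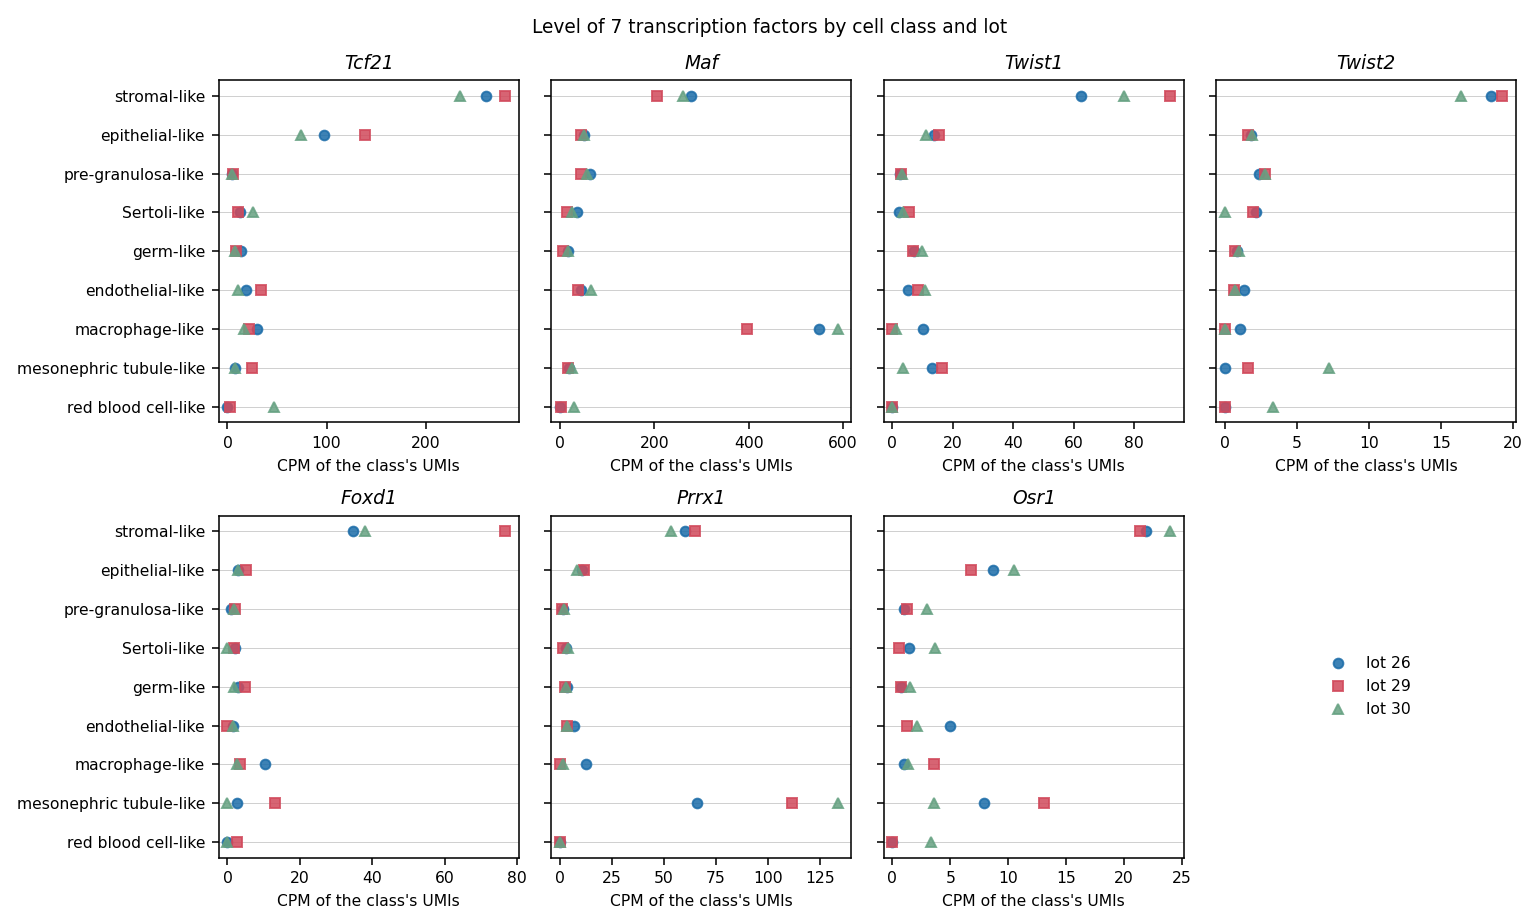
Level of each member (x axis, CPM of the summed UMIs of a class) in 9 cell classes (y axis), with 1 point per lot. Stromal-like cells are highest for *Tcf21*, *Twist1*, *Twist2*, *Foxd1* and *Osr1*, while *Maf* is highest in macrophage-like cells (396 to 588 CPM) and *Prrx1* in mesonephric tubule-like cells (66.03 to 133 CPM).

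All 7 members were higher in stromal-like than in pre-granulosa-like cells, where 21.9% of 13293 genes tested were higher and 25.9% lower (quasi-likelihood F test in edgeR, p-values adjusted by Benjamini-Hochberg, threshold 0.05). The median log2 fold change of the 7 was 4.63, against -0.04 over all genes. The difference was 5.55 ± 0.29 (log2 fold change ± SE, adjusted p = 2.4e-15) for *Tcf21*, 5.15 ± 0.23 (2.6e-16) for *Prrx1* and 4.86 ± 0.35 (1.8e-12) for *Foxd1*. It was 4.63 ± 0.22 for *Twist1*, 3.51 ± 0.27 for *Osr1*, 2.64 ± 0.18 for *Twist2* and 2.03 ± 0.22 for *Maf*, with adjusted p-values from 8.5e-16 to 7.7e-09. Every member was higher in 3 of 3 lots. The members were picked as mesenchymal factors with earlier results known, and the study lists *Tcf21* among the genes of its stromal fibroblasts. That all 7 were higher, here and against epithelial-like cells, is therefore a description and no independent finding.

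Against epithelial-like cells the order of the differences changed. All 7 members were again higher in stromal-like cells, where 16.4% of genes were higher and 13% lower, and the median of the 7 was 2.46 against 0.01 over all genes. *Foxd1* (3.72 ± 0.33, adjusted p = 3.4e-10) and *Twist2* (3.27 ± 0.19, 7.1e-14) differed most. *Tcf21* (1.26 ± 0.24, 0.00013) and *Osr1* (1.31 ± 0.24, 7.9e-05) differed least, and *Prrx1* (2.52 ± 0.19), *Twist1* (2.46 ± 0.19) and *Maf* (2.28 ± 0.22) lay between.

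Between the epithelial-like and pre-granulosa-like classes, 5 members were higher in epithelial-like cells, where 18.9% of genes were higher. These were *Tcf21* (4.29 ± 0.28), *Prrx1* (2.63 ± 0.22), *Osr1* (2.20 ± 0.27), *Twist1* (2.17 ± 0.21) and *Foxd1* (1.14 ± 0.36, adjusted p = 0.011), whose mean was 10.7 CPM in epithelial-like cluster 10 and 1.25 to 3.73 CPM in the other epithelial-like clusters. *Twist2* was lower there (-0.63 ± 0.19, 0.008), in 1 member against 25.6% of genes, and *Maf* was not called (-0.25 ± 0.21, 0.36). The call for *Twist2* was lost without lot 29 (adjusted p = 0.11) or without lot 30 (0.078), and that for *Foxd1* without lot 26 (0.09). *Maf* was called with the lot as a block (adjusted p = 0.036), and stood at 0.02 with cluster 12 of the pre-granulosa-like and cluster 2 of the stromal-like class left out.

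**Figure D2:**
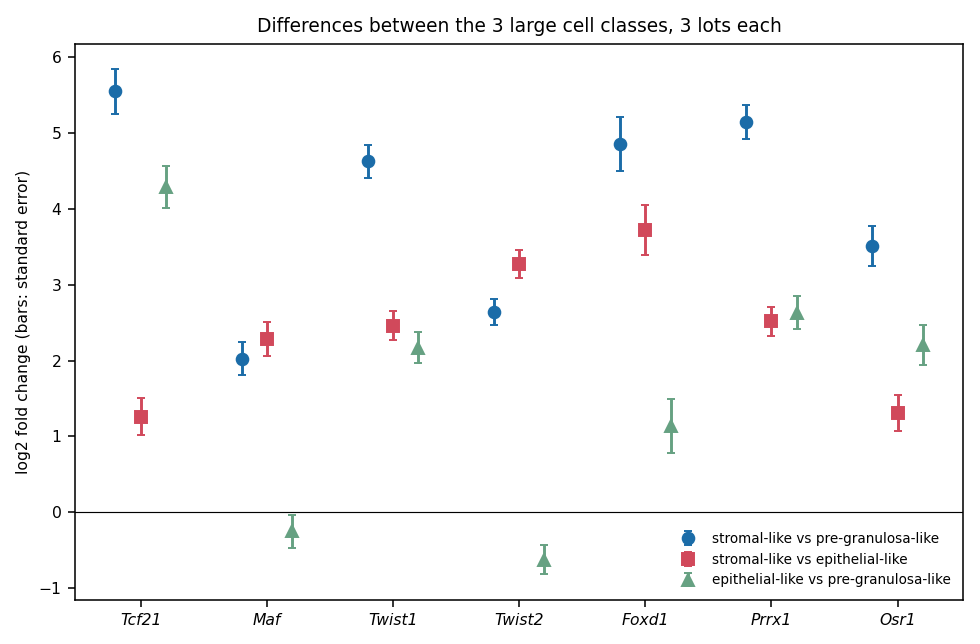
Log2 fold change of each member (y axis, points) with its standard error (bars) in the 3 comparisons between large classes. *Tcf21* and *Osr1* lie closest to 0 for stromal-like against epithelial-like cells (1.26 and 1.31), and *Maf* and *Twist2* lie below 0 for epithelial-like against pre-granulosa-like cells.

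In the same fit, *Maf* was the only member higher in macrophage-like than in stromal-like cells (1.16 ± 0.22, adjusted p = 0.00013), where 18% of genes were higher. The other 6 were lower, from -2.84 ± 0.62 for *Foxd1* to -5.04 ± 0.63 for *Twist2*, where 15.7% of genes were lower. *Prrx1* was the only member higher in mesonephric tubule-like than in stromal-like cells (0.74 ± 0.24, adjusted p = 0.034), where 7.91% of genes were higher. There *Tcf21*, *Maf*, *Twist1*, *Twist2* and *Foxd1* were lower (-4.09 to -2.66), where 8.58% of genes were lower, and *Osr1* was not called (-1.29 ± 0.54, 0.11). Both small classes rest on few cells, 135 and 78 over the 3 lots.

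Levels of the members differed between the 4 stromal-like clusters. Cluster 2 (2613 cells) had *Sparcl1* and *Ngfr* among its leading genes, and, like pre-granulosa-like cluster 12, a marker of another list but none of its own among the first 10. Cluster 5 (1955 cells) had *Itga8* among its leading genes and was cycling, with the proliferation gene *Mki67* at 412 CPM ± 57 against 20.05 to 29.9 CPM on average in the other 3. Cluster 9 (1009 cells) was led by *Lum*, *Ntrk2* and *Agtr2*. Cluster 11 (856 cells) was led by *Dkk2*, *Nefm* and *Efemp1* beside *Foxd1* itself. Called doublets, barcodes that score like 2 cells captured together, made up 50.6%, 23% and 52.6% of cluster 11 in lots 26, 29 and 30, and at most 10.3% of the other 3 in any lot. The 8 pre-granulosa markers summed to 1167 to 2393 CPM in cluster 11 and to 438 to 735 CPM in the others. Without the called doublets the sum in cluster 11 was 421 to 1419 CPM, and levels in cluster 11 are given with and without them, while shares of UMIs and of cells include them.

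*Foxd1* was split most sharply. It stood at 0.918, 1.08 and 1.21 CPM in cluster 2 in lots 26, 29 and 30, at 35.8, 55.6 and 25.7 CPM in cluster 5, and at 36.1, 66.7 and 43.5 CPM in cluster 9. In cluster 11 it stood at 105, 283 and 125 CPM, and at 217, 408 and 244 CPM without the called doublets. Lot 29 was highest in clusters 5, 9 and 11, and no lot of cluster 11 overlapped the others. Cluster 11 held 13.4% ± 1.5 of the stromal-like cells and 58% ± 8.8 of their *Foxd1* UMIs, and cluster 2 held 40.5% ± 2.5 of the cells and 0.838% ± 0.34 of those UMIs.

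*Twist1* and *Prrx1* were lowest in cluster 2, and spread widely between lots in cluster 11. *Twist1* stood at 31.4, 35.4 and 38.0 CPM in cluster 2, at 78.3, 84.7 and 79.0 CPM in cluster 5, and at 75.4, 110 and 107 CPM in cluster 9. In cluster 11 it stood at 83.0, 209 and 130 CPM, and at 139, 283 and 265 CPM without called doublets. *Prrx1* stood at 29.1, 19.5 and 29.1 CPM in cluster 2, at 63.8, 46.7 and 51.3 CPM in cluster 5, and at 115, 127 and 108 CPM in cluster 9. Its values in cluster 11, at 81.2, 163 and 78.7 CPM, overlapped those of cluster 9, and without called doublets they were 157, 226 and 152 CPM. Lot 29 was the highest in cluster 11 for both genes.

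*Twist2* and *Osr1* were highest in cluster 9. *Twist2* stood there at 54.1, 49.2 and 54.1 CPM, against 22.2, 26.2 and 17.4 CPM in cluster 11 (28.6, 30.9 and 25.6 CPM without called doublets), 17.6, 17.1 and 15.8 CPM in cluster 5 and 6.54, 9.56 and 7.64 CPM in cluster 2. *Osr1* stood at 49.4, 49.8 and 63.4 CPM in cluster 9, against 13.8, 13.0 and 20.9 CPM in cluster 2. The values of *Osr1* in clusters 2, 5 and 11 overlapped, and those of cluster 9 lay above them, also above the 32.4, 47.4 and 21.9 CPM of cluster 11 without called doublets. *Tcf21* and *Maf* had their highest mean in cluster 2 and their lowest in cluster 11. *Tcf21* had a mean of 309 CPM ± 22 in cluster 2, 281 ± 29 in cluster 5, 221 ± 21 in cluster 9 and 129 ± 12 in cluster 11. *Maf* had a mean of 321 CPM ± 50 in cluster 2, 211 ± 46 in cluster 5, 261 ± 17 in cluster 9 and 181 ± 10 in cluster 11. Lots overlapped between clusters 2 and 5 for *Tcf21* and between clusters 2 and 9 for *Maf*, with cluster 2 higher within each lot. Without called doublets, cluster 11 held 138, 132.5 and 124 CPM of *Tcf21* and 213, 185 and 226 CPM of *Maf*. The lots of *Maf* in clusters 5 and 11 overlapped with and without these cells. In lot 29, with all cells, *Maf* was lower in cluster 5 (159 CPM) than in cluster 11 (176.5 CPM).

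**Figure D3:**
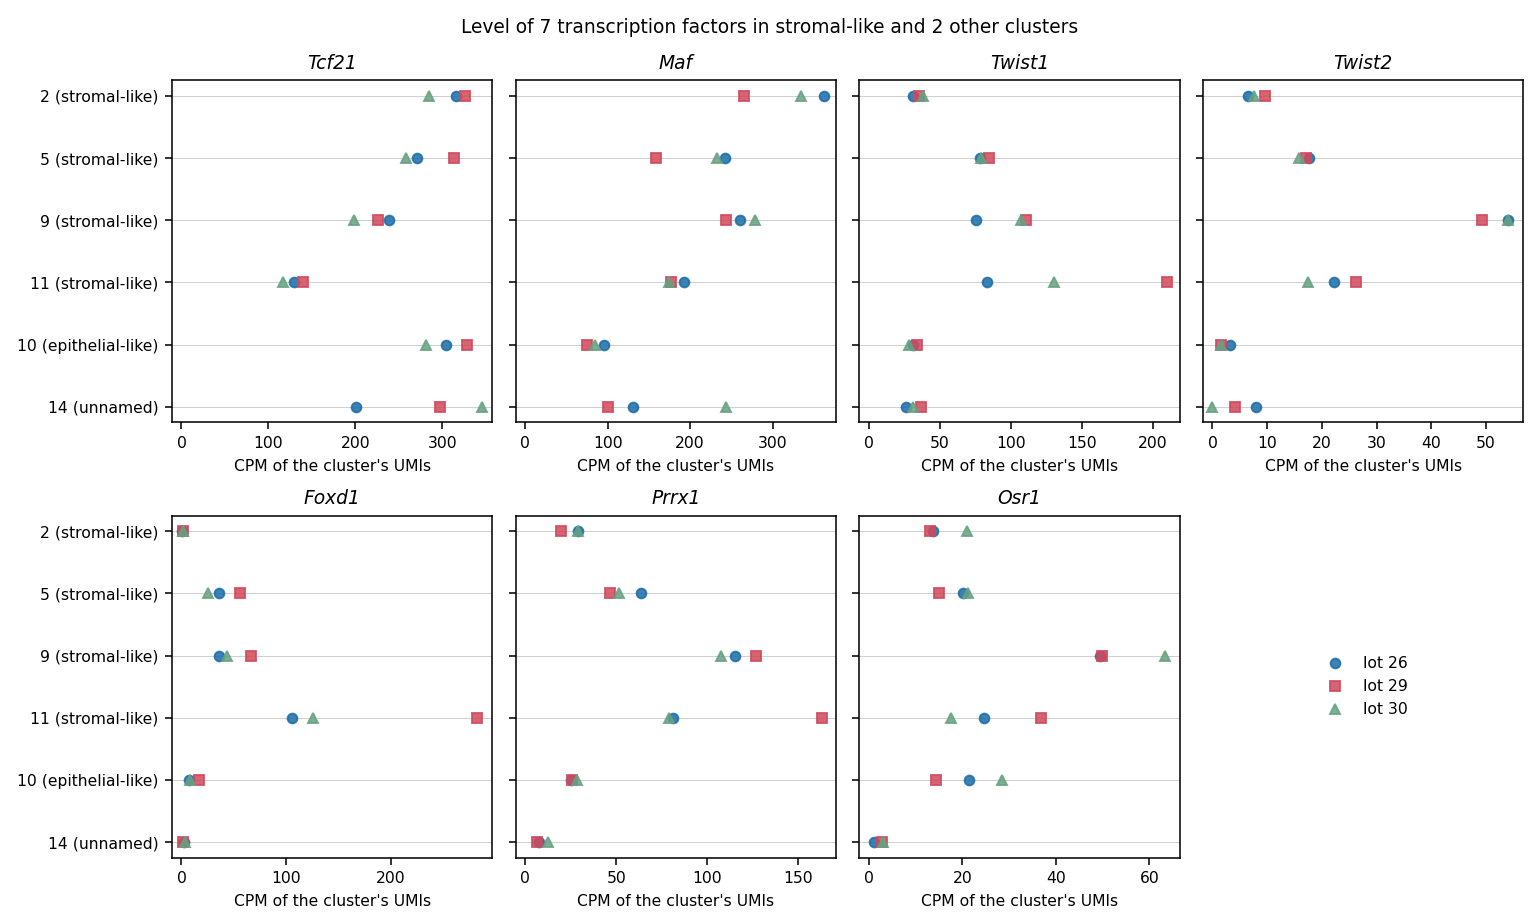
Level of each member (x axis, CPM of the summed UMIs of a cluster) in the 4 stromal-like clusters, epithelial-like cluster 10 and unnamed cluster 14 (y axis), with 1 point per lot. *Foxd1* runs from about 1 CPM in cluster 2 to 105 to 283 CPM in cluster 11, and *Twist2* and *Osr1* are highest in cluster 9. The lots of *Tcf21* in clusters 10 (282 to 329 CPM) and 14 (201 to 346 CPM) overlap those of cluster 2 (285 to 327 CPM).

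Each cluster was tested in edgeR by the same test, adjusted over 12317 genes, against the mean of the log2 levels of the other 3, which for *Foxd1* is drawn down by the 1.07 CPM of cluster 2. In cluster 2, *Tcf21* (0.74 ± 0.095, log2 ± SE, adjusted p = 4.3e-05) and *Maf* (0.69 ± 0.10, 0.00015) were higher, where 11.7% of genes were higher. The other 5 members were lower, where 12.1% of genes were lower, from -0.77 ± 0.19 (0.0079) for *Osr1* to -5.85 ± 0.51 (1.6e-06) for *Foxd1*. The call for *Osr1* was lost without lot 26 (adjusted p = 0.12). In cluster 5, *Tcf21* (0.52 ± 0.096, 0.00097) and, at the threshold, *Foxd1* (0.99 ± 0.34, 0.049) were higher, where 13.6% of genes were higher. The mean of *Foxd1* in cluster 5, 39.0 CPM, lay above that of cluster 2 but below those of clusters 9 (48.7 CPM) and 11 (171 CPM). No member was lower with edgeR, where 8.44% of genes were lower, although *Osr1* (-0.50 ± 0.18, 0.065) was at an unadjusted p of 0.0159 and was called by DESeq2 (0.049) and with the lot as a block (0.027). Without called doublets, *Osr1* (-0.55, 0.038) and *Prrx1* (-0.44, 0.033) were called lower. The call for *Foxd1* in cluster 5 was lost without lot 26 (0.22) and without lot 30 (0.1).

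In cluster 9, *Twist2* (1.78 ± 0.13, adjusted p = 2.2e-07), *Osr1* (1.33 ± 0.19, 8.6e-05), *Prrx1* (1.01 ± 0.19, 0.0009) and *Foxd1* (1.18 ± 0.38, 0.026) were higher by edgeR, where 14% of genes were higher. For *Foxd1* this was again on the log scale, its level in cluster 9 being below that of cluster 11. No member was lower, where 17.9% of genes were lower, neither at an unadjusted p under 0.05 nor by DESeq2, and the values were -0.14 ± 0.10 for *Tcf21*, 0.06 ± 0.11 for *Maf* and 0.28 ± 0.21 for *Twist1*. The call for *Foxd1* was lost without lot 26 (0.076) and without lot 30 (0.11). In cluster 11, *Foxd1* (3.68 ± 0.30, 1.5e-06), *Twist1* (1.04 ± 0.19, 0.0011) and *Prrx1* (0.89 ± 0.18, 0.0026) were higher, where 12% of genes were higher, and *Tcf21* (-1.13 ± 0.11, 4.8e-06) and *Maf* (-0.59 ± 0.11, 0.0013) were lower, where 9.59% of genes were lower. Without the called doublets the differences were 4.43 for *Foxd1*, 1.67 for *Twist1*, 1.56 for *Prrx1*, -1.18 for *Tcf21* and -0.47 for *Maf*, and *Twist2* was also called (0.42, adjusted p = 0.035). The call for *Maf* in cluster 11 was lost without lot 30 (adjusted p = 0.055).

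Outside the stromal-like class, *Tcf21* reached the level of the stromal-like clusters in epithelial-like cluster 10. This cluster of 998 cells, led by *Pappa2*, *Upk1b* and *Krt19*, held 305, 329 and 282 CPM of *Tcf21* in lots 26, 29 and 30, and 96.7 CPM ± 12 of *Hand2*. There *Osr1* stood at 21.5 CPM ± 7.1, *Twist1* at 31.3 ± 2.9, *Prrx1* at 26.2 ± 1.8, *Foxd1* at 10.7 ± 5.0 and *Twist2* at 2.10 ± 0.93. Its 8 epithelial markers summed to 936 to 1094 CPM and its 8 stromal markers to 1264 to 1918 CPM, and their part in the *Tcf21* level was not tested. Called doublets made up at most 1.71% of cluster 10 in any lot. *Tcf21* was not confined to this part of the class, and stood at 112 CPM ± 31 in epithelial-like cluster 6, 79.2 ± 48 in cluster 8 and 37.9 ± 6.6 in cluster 4.

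Co-detection was read in stromal-like cells thinned to 4000 UMIs, which left out 29, 87 and 28 shallower cells in lots 26, 29 and 30. At that depth 87.7% to 88.7% of the cells had a UMI of at least 1 member, 54.2% to 56.6% of at least 2 and 5.68% to 7.59% of at least 4. *Foxd1* and *Prrx1* were the pair found together most often against the product of their shares. *Prrx1* had a UMI in 47.7%, 46.3% and 49.2% of the cells with *Foxd1* in lots 26, 29 and 30, and in 17.3%, 13.9% and 15.9% of those without it. The log2 odds ratio of the pair was 2.30 ± 0.15 (SD, n = 3). By log2 odds ratio the next were *Twist1* with *Foxd1* (1.99 ± 0.19), *Twist1* with *Prrx1* (1.38 ± 0.26), *Twist2* with *Foxd1* (1.25 ± 0.25) and *Twist2* with *Prrx1* (1.06 ± 0.074). Each was above 0 in 3 of 3 lots.

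*Tcf21* was found less often with *Foxd1* than the product of their shares. It had a UMI in 40%, 41% and 40.3% of the cells with *Foxd1* and in 53.1%, 58% and 54.2% of those without it, and the log2 odds ratio was -0.85 ± 0.12. The values of *Tcf21* with *Twist2* (-0.50 ± 0.14) and with *Prrx1* (-0.43 ± 0.30) were also below 0 in 3 of 3 lots. *Tcf21* with *Maf*, detected in 1907 cells together, was near even at 0.21 ± 0.14, and *Maf* with *Osr1* stood at 0.65 ± 0.29. Cells are not replicates, so these ratios are descriptions without a test.

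Compared only within clusters, these pairs lay nearer to 0, and the log2 odds ratio was 1.55 ± 0.43 for *Foxd1* with *Prrx1*, 1.29 ± 0.50 for *Twist1* with *Foxd1*, 1.01 ± 0.033 for *Twist1* with *Prrx1* and -0.22 ± 0.045 for *Tcf21* with *Foxd1*. Other pairs lay farther from 0 within clusters, among them *Maf* with *Osr1* (0.74 ± 0.29) and *Tcf21* with *Osr1* (0.48 ± 0.17, against 0.33 ± 0.18 over all cells). The lowest value within clusters was that of *Tcf21* with *Twist2* (-0.31 ± 0.12). All 3 of *Foxd1*, *Twist1* and *Prrx1* were found in 7.81% (20 of 256 cells), 18.5% (49 of 265) and 10.5% (34 of 325) of cluster 11 in lots 26, 29 and 30. The share was 1.21% to 1.76% in cluster 5 and 1.30% to 2.85% in cluster 9. In cluster 2 no cell of 890, 699 and 997 held all 3. There only 0.318% ± 0.10 of the thinned cells had a *Foxd1* UMI, so hardly any cell could. Without called doublets, *Foxd1* with *Prrx1* stood at 2.46 over all stromal-like cells.

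**Figure D4:**
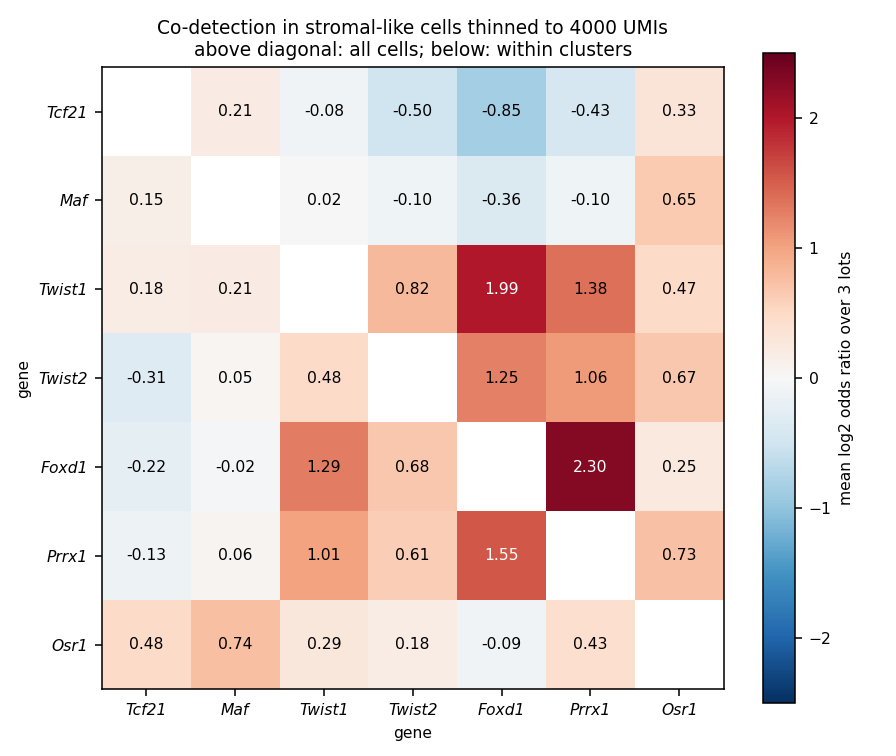
Mean log2 odds ratio over 3 lots of finding a UMI of both genes in a stromal-like cell thinned to 4000 UMIs, over all cells (above the diagonal) and within clusters (below it). *Foxd1*, *Prrx1* and *Twist1* form the reddest block (1.38 to 2.30 above the diagonal), and *Tcf21* with *Foxd1* is the bluest pair above the diagonal (-0.85), and *Tcf21* with *Twist2* below it (-0.31).

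The 59 related factors that were held out of the clustering with the members were compared in the same fits. Of the 46 that passed the filter on low counts, 35 were higher and 1 lower in stromal-like than in pre-granulosa-like cells (edgeR, median log2 1.47), beside 21.9% and 25.9% of all genes. Those with the largest differences were the homeobox gene *Meox1* (5.80 ± 0.72), the forkhead gene *Foxp2* (5.71 ± 0.29) and the early B-cell factor *Ebf1* (5.17 ± 0.27). Against epithelial-like cells, 28 were higher and 3 lower, beside 16.4% and 13% of all genes, led by *Ebf1* (4.61 ± 0.26), *Foxs1* (4.06 ± 0.30) and *Foxc2* (3.96 ± 0.42). Between epithelial-like and pre-granulosa-like cells, 17 were higher and 5 lower, beside 18.9% and 25.6% of all genes, among them *Hand2* (5.01 ± 0.31) and *Meis2* (3.04 ± 0.24). Of the 10 helix-loop-helix relatives and partners of TCF21 and TWIST tested, 4 were higher and 1 lower than in pre-granulosa-like cells, and 1 was higher and 3 lower than in epithelial-like cells. All 6 forkhead genes tested were higher than in pre-granulosa-like cells, and 5 of 6 higher than in epithelial-like cells. For the MAF family these counts were 4 and 2 of 6, and for the homeobox and odd-skipped genes 6 and 7 of 9. The list of 59 also held 17 other factors listed for being mesenchymal, not as relatives of the members. Of the 15 of these tested, 15 were higher than in pre-granulosa-like and 13 than in epithelial-like cells.

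Of the 47 related factors tested between stromal-like clusters, 5 were higher and 23 lower in cluster 2, and 22 were higher and 3 lower in cluster 9, beside 11.7%, 12.1%, 14% and 17.9% of all genes. In cluster 2 the largest differences were those of *Ebf3* (-3.94 ± 1.1), *Foxd2* (-3.73 ± 0.61) and the T-box gene *Tbx18* (-3.31 ± 0.60), as edgeR log2 fold changes. In cluster 9 they were those of *Osr2* (1.91 ± 0.27), the paralog of *Osr1*, *Foxp2* (1.88 ± 0.25) and *Tbx3* (1.82 ± 0.16). Cluster 11 had 11 higher and 14 lower, beside 12% and 9.59% of all genes, led by *Ebf3* (4.05 ± 0.57), *Ebf2* (3.06 ± 0.29) and *Tbx18* (3.02 ± 0.39). Cluster 5 had 3 higher and 4 lower, beside 13.6% and 8.44% of all genes, among them *Foxs1* (0.81 ± 0.14) and *Tbx2* (0.75 ± 0.092).

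Some genes followed a member closely across cell types. Likeness was the Pearson correlation of log2(CPM + 1) over 20 clusters, among 10350 genes at 20 CPM or more in at least 1 cluster. The clusters share libraries and many mesenchymal genes, so r is a description. Among the closest to *Tcf21* were the collagen gene *Col1a2* (r = 0.914) and *Ltbp4* (0.902), and to *Twist1* the stromal surface gene *Cd248* (0.954), *Ptn* (0.931) and the chemokine gene *Cxcl12* (0.931). Those closest to *Foxd1* were *Fap* (0.912), *Shisa3* (0.883) and the WNT antagonist gene *Dkk2* (0.870), and to *Prrx1* *Lhfp* (0.938), the collagen receptor gene *Ddr2* (0.934) and *Rarb* (0.932). *Osr1* was closest to *Il33* (0.936), *Ror1* (0.931) and *Ddr2* (0.930), and *Twist2* to *Il1rapl1* (0.922). *Maf* was closest to *Lrp1* (0.922), *Lsp1* (0.914) and *Zfp36* (0.913). Among the members, *Prrx1* and *Osr1* were most alike (0.889), and *Maf* had no r above 0.530 with any other member.

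Reads of neighbouring transcripts limit some of the levels. In GENCODE annotation of GRCm38, *Tcf21* (chr10:22817281-22820174, minus strand) lies over its whole 2894 bases under the antisense gene *Gm10824*, and *Maf*, *Twist2*, *Prrx1* and *Osr1* also overlap antisense genes in part. None of these is listed in the count tables. The strand setting of the counting is not given in the sources used here, so reads of a gene and of its antisense partner cannot be told apart for these 5 genes, and the annotation shows no such partner for *Twist1* and *Foxd1*. *Twist2* also overlaps *Gm29101*, and *Prrx1* overlaps *Gm26523* and *Gm37644*, on the same strand. These genes are not listed in the count tables either, and strand cannot tell their reads apart.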

How the data were processed

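Single-cell RNA sequencing of 3 FOSC lots gave 1 deposited table of UMI counts per gene and barcode for each lot. Per the study's methods and the labels, the authors chose barcodes with UMI-tools, used STAR 2.7 for alignment (GRCm38), and counted the uniquely mapped reads by featureCounts 2.0.1; annotation and strand setting are not given in the sources used here. Kept barcodes had 200 to 9000 genes and at most 10% mitochondrial UMIs. Lots held 87494974 to 141920060 UMIs in all.

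Cells were log-normalized and clustered with Seurat 5.3.0 (R 4.3.3; 2000 variable genes without the 7 members and 59 related factors, 50 principal components, resolution 0.8) and named from 12 marker lists. Doublets were called with Scrublet (scanpy 1.11.5, expected rate 8%) and kept in the main values. Counts were summed per class or cluster and lot where each lot had at least 10 cells, and the sums were compared in edgeR 4.0.16 by its quasi-likelihood F test, after filterByExpr and TMM scaling, at a Benjamini-Hochberg adjusted p of 0.05, with the class alone as term and all classes, or all 4 stromal-like clusters, in 1 fit. The scripts were tested on simulated data. For shares and co-detection each cell was thinned to 4000 UMIs. In odds ratios over all cells, 0.5 was added to each cell of the table. Those within clusters were Mantel-Haenszel ratios, pooled over the clusters of a lot, with nothing added. A count of 3 was taken as the floor where a class had none. Confidence intervals are exact (Clopper-Pearson, 95%).

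Sums of the same lot come from the same pool of animals: deviations from the group means correlated above 0.1 for 18 of 18 lot-matched pairs of stromal-like clusters (median r = 0.285) and for 59 of 108 pairs of classes (median 0.119). Alternatives were RLE normalization, no filter, DESeq2 1.42.0, the lot as a block, each lot left out, called doublets or cells with a UMI of 4 Y-linked genes removed, resolutions 0.4 and 1.2, the held-out genes put back, and other thinning.

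The members and gene lists were chosen with earlier results of these data known. Genes named besides the members are, in each comparison, up to 3 related factors with the largest differences past the threshold and in the same direction in 3 of 3 lots, the 3 genes most like each member, and the markers and leading genes of clusters. *Mki67* and *Hand2* were named after their values were seen. Some genes that the rule selects are not reported here.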

Additional observations from a re-analysis of the deposited data

How the results depend on the processing

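Every member kept its direction and call for stromal-like against pre-granulosa-like and against epithelial-like cells under all alternatives run. With the lot as a block, genes called rose from 3910 to 6642 for stromal-like against epithelial-like cells, from 2928 to 4835 for cluster 2, from 2714 to 4592 for cluster 5 and from 2653 to 4117 for cluster 11; 2 members were then lower in epithelial-like than in pre-granulosa-like cells, and beyond the calls of *Maf* and *Osr1* given above the block changed no other call. Leaving out each lot gave 2364 to 3691 genes for stromal-like against epithelial-like cells, and 1423 to 2664, 1191 to 2228, 1915 to 3603 and 1155 to 2816 for clusters 2, 5, 9 and 11 (3929 with all lots for cluster 9), lowest without lots 26 or 30. It gave 0 to 1 members lower in epithelial-like cells, 1 to 2 higher in cluster 5 and 1 to 2 lower in cluster 11. In cluster 5, 1 member rather than 2 was higher with RLE, with DESeq2, without called doublets and without cells with a Y-linked UMI. Uncalled differences that changed sign were *Twist1* in cluster 5 (-0.026 without called doublets, -0.025 to 0.233 over the lots left out), *Maf* in cluster 9 (-0.027 without called doublets, -0.010 without cells with a Y-linked UMI), *Maf* for epithelial-like against pre-granulosa-like cells (0.023 without clusters 2 and 12) and *Osr1* in cluster 11 (0.248 without called doublets, -0.452 to 0.329 over the lots left out). Leaving out clusters 2 and 12, chosen after seeing the data, changed no call of a member between the 3 large classes. *Foxd1* was not called for epithelial-like against pre-granulosa-like cells with the held-out genes put back (0.81, adjusted p = 0.067). The cause of these changes was not tested. Of the co-detection ratios under the alternatives, 135 moved by less than 1 SD of the lots and 12 by more. Levels near that of a few UMIs, as in the classes with under 100 cells, are limited by depth.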

Other observations

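The 2 clusters left unnamed also held members. Cluster 14 (127, 263 and 32 cells in lots 26, 29 and 30), scored highest for the steroidogenic list and was led by *Insl3*, *Cyp11a1* and *Cyp17a1*. It held 201, 297 and 346 CPM of *Tcf21* and 131, 101 and 243 CPM of *Maf*. *Twist1* stood at 31.4 CPM ± 5.2 (SD, n = 3), with lots overlapping those of stromal-like cluster 2, *Prrx1* at 8.72 ± 3.3 and *Foxd1* at 2.22 ± 0.93. A Y-linked UMI was found in 66.9%, 64.3% and 78.1% of its cells. Cluster 13 (279, 99 and 353 cells), whose median depth was 0.242 of that of its lots, held 202 CPM ± 81 of *Maf* and 41.4 ± 20 of *Tcf21*.

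Members were found together most often in cluster 11 of lot 29, where 24.9% of 265 thinned cells had at least 4 members, against 10.6% of 256 in lot 26 and 15.4% of 325 in lot 30. In cluster 9 the share was 15.05%, 13% and 13.6% in lots 26, 29 and 30, which in lot 26 was above that of cluster 11. In cluster 2 it was 1.24% to 3.31%. Called doublets, 50.6%, 23% and 52.6% of cluster 11 in lots 26, 29 and 30, were kept here. Their part in these shares was not tested.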
